A study of Mus musculus with 6 samples.

Results

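The genes described here encode the 5 DNA-binding subunits of the transcription factor NF-kB (Nfkb1, Nfkb2, Rel, Rela and Relb) and 5 of its ankyrin-repeat inhibitors (Nfkbia, Nfkbib, Nfkbie, Nfkbiz and Bcl3). They were taken by symbol from a table of 24205 genes, in which each of the 10 symbols stood on 1 row. Expression was measured by bulk RNA sequencing of granulocyte-monocyte progenitors (GMPs), which give rise to neutrophils and monocytes in bone marrow. The cells were sorted from C57BL/6 mice that had undergone hindlimb ischemia, a surgical loss of blood flow to a leg (3 libraries), or a sham operation (3 libraries). The labels give no genotype, age, sex or time after surgery, and do not say whether each library came from 1 animal or a pool, so p-values here reflect the spread of these libraries alone, which may be technical.

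NF-kB proteins act as dimers. In resting cells the cytoplasmic inhibitors, named I kappa B proteins, cover the dimers' nuclear localization signals. Receptors for tumour necrosis factor, interleukin-1 and microbial products activate the I kappa B kinase complex, which marks the inhibitors for destruction, and the freed dimers enter the nucleus and switch on genes that include the inhibitor genes themselves. This feedback makes Nfkbia mRNA a common readout of the pathway, and in myeloid progenitors the pathway is known for its part in inflammatory blood formation.

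Promoter sequence is shown for the members in which a match to the kappa B consensus, the DNA motif of NF-kB dimers, was found. Nfkbia, the member whose groups did not overlap in TPM as deposited, prompted this choice. RefSeq promoter windows on GRCm38.p6, from 250 bases before to 50 after a start site, were at hand for 7 of the 10 genes in 9 windows. Entries were missing for Nfkb1, Relb and Nfkbiz. The consensus was GGGRNNYYCC, where R is A or G, Y is C or T and N is any base. Searched on both strands, it was present in a window of 5 of these 7 genes, against 9.55% of the 27025 genes with a window. Overlapping matches were allowed. Capitals mark the matches, which describe letters in the window and not binding, and the windows are written 5′ to 3′ along the gene.
Nfkbia: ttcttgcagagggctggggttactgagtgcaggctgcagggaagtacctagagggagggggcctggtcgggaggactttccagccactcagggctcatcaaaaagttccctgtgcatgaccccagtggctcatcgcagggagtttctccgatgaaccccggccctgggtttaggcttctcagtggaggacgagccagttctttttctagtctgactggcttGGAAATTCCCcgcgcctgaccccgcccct
Nfkb2: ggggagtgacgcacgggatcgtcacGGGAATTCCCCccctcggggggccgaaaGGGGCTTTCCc
Nfkb2, downstream window: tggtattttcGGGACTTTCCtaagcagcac
Rel: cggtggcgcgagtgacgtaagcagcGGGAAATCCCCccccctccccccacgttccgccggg
Nfkbie: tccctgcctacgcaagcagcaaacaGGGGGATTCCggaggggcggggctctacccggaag
Bcl3: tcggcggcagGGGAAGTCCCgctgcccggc
The Nfkbia stretch lies on the minus strand at chr12:55492648-55492897 and ends at the base before the start site. Its match, GGGAATTTCC on the strand opposite to the gene, runs from 29 to 20 bases before the start site. The first Nfkb2 stretch lies on the plus strand at chr19:46304673-46304736 and holds overlapping matches, since its site reads as the consensus on both strands. The stretch from a downstream Nfkb2 window lies at chr19:46305695-46305724. Another Nfkb2 match, GGGACATTCC on the strand opposite to the gene at chr19:46305459-46305468, lies outside the stretches shown. The Rel stretch lies on the minus strand at chr11:23771026-23771086, the Nfkbie stretch on the plus strand at chr17:45555569-45555628 and the Bcl3 stretch on the minus strand at chr7:19822734-19822763. The Bcl3 match begins at base 3 counted from the RefSeq start site of this window. The Bcl3 gene span given below starts further upstream, at 19822770 on the minus strand. No match to these letters was found in the windows of Rela and Nfkbib.

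Expression is given in TPM, transcript abundance scaled by gene length and library total, so levels can be compared between genes. The 6 libraries held 32547286 to 41623749 recovered reads. The sorted population's markers were abundant in every library, with 8448 to 12820 TPM of Mpo and 9607 to 12370 TPM of Elane (azurophil granule genes), and 70.2 to 146.5 TPM of Kit and 193.0 to 336.1 TPM of Cd34 (progenitor surface markers). Of the 10 lymphoid markers, 7 were under 1 TPM in every library, as were 6 of 8 stromal and endothelial markers. The lymphoid markers still summed to 44.3 to 46.0 TPM in hindlimb ischemia and 50.4 to 54.9 TPM in sham. Cd79b made up most of these sums, at 43.28 to 44.72 TPM in hindlimb ischemia and 47.08 to 50.31 TPM in sham. The 2 lymphoid markers tested were both lower without overlap, against 6.68% of all genes tested. Stromal and endothelial sums were 22.3 to 40.6 TPM in hindlimb ischemia and 30.1 to 38.9 TPM in sham. Most of each sum was Pecam1, at 17.76 to 32.31 TPM in hindlimb ischemia and 22.96 to 30.65 TPM in sham. Basophil, mast cell and eosinophil markers were present throughout, with 0 of 7 under 1 TPM in every library and sums of 3425 to 3598 TPM in hindlimb ischemia and 3204 to 4044 TPM in sham. Erythroid and megakaryocyte markers summed to 88.2 to 163.5 TPM in hindlimb ischemia and 220.5 to 260.9 TPM in sham. Of the 10, 6 were lower at an unadjusted p under 0.05, against 2.95% of all genes tested. They were the globin genes Hba-a1, Hba-a2, Hbb-bs and Hbb-bt, with Gata1 and Klf1. Levels within the Hba pair and within the Hbb pair were close in every library, so these may not be separate observations. The groups of Epor, Car1, Itga2b and Pf4 overlapped, and Pf4 had a log2 fold change of 0.185. The libraries also differed in overall scale: size factors, taken as the median ratio of a library's TPM to the geometric mean over libraries, were 1.05, 0.958 and 0.878 for hindlimb ischemia replicates 1 to 3, against 1.16, 0.974 and 0.999 for sham replicates 1 to 3.

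Rela, Nfkbia, Nfkb1 and Nfkbib formed the upper tier of the family and Relb the bottom of it. Over the 6 libraries the mean levels were 62.0 TPM for Rela, 58.1 TPM for Nfkbia, 37.4 TPM for Nfkb1 and 30.5 TPM for Nfkbib. Bcl3 followed at 14.1 TPM, Nfkb2 at 11.1 TPM, Nfkbie at 8.95 TPM and Rel at 8.58 TPM. Nfkbiz had 2.30 TPM and Relb 0.970 TPM. Neighbours in this order had separate ranges at 3 steps, from Nfkbib to Bcl3, from Rel to Nfkbiz and from Nfkbiz to Relb. Rela and Nfkbia overlapped, with Rela the higher in 5 of 6 libraries. Nfkbie and Rel overlapped too, and each was the higher in 3 libraries.

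**Figure D1:**
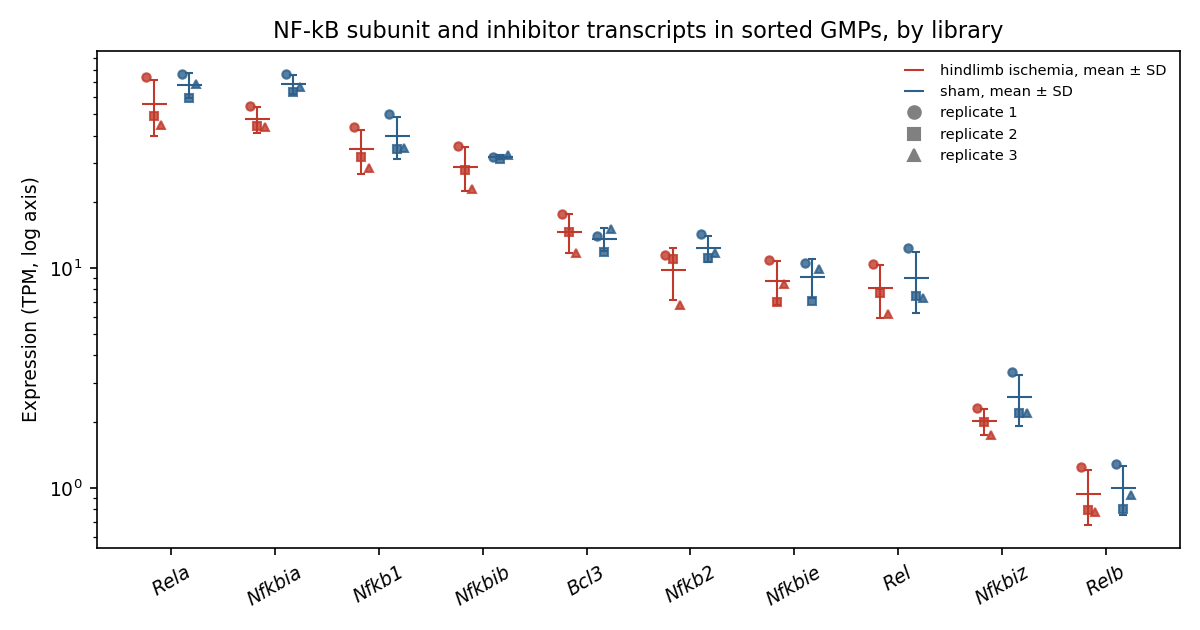
Expression of the 10 genes in each library, in TPM on a log axis, ordered by mean level, with hindlimb ischemia left of sham. Points are libraries, with a marker shape per replicate, and bars are mean ± SD of 3 libraries. Nfkbia is the gene whose groups do not overlap, and Relb lies near 1 TPM.

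In TPM as deposited, Nfkbia was the 1 member whose groups did not overlap. Its hindlimb ischemia libraries lay between 43.9 and 54.9 TPM and its sham libraries between 63.2 and 76.3 TPM. Of the 10 genes, 1 had groups that did not overlap in either direction, a share close to the 8.33% of all genes tested (6.68% lower and 1.65% higher). The fit across all genes (limma on log2(TPM + 1), 13787 genes that reached 1 TPM in 3 or more libraries) took in 9 of the 10 members and left out Relb. No member passed a Benjamini-Hochberg adjusted p of 0.05, and 0% of all genes did in this fit or with limma-voom on recovered reads. At an unadjusted p under 0.05, 1 of the 9 was lower (Nfkbia) and 0 were higher, against 2.95% of all genes lower, 0.943% higher and 3.89% in either direction. A fold change below 0 was found for 8 of the 9, against 69.1% of all genes, with a member median of -0.20 and an all-gene median of -0.09 (log2). Division by size factors moved the all-gene median by 0.11 to 0.02 and the share below 0 to 46.4%; 7 of the 9 members were then below 0, with a median of -0.09, and 1 was lower at an unadjusted p under 0.05, against 2.64% of all genes. In bulk RNA, fewer cells of a type and less RNA per cell cannot be told apart.

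**Figure D2:**
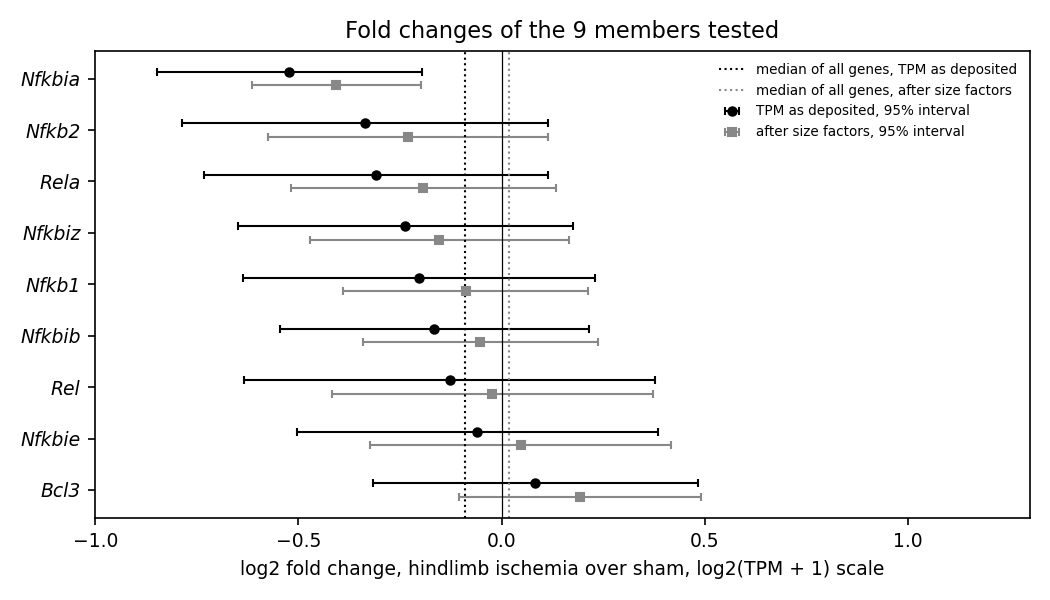
The log2 fold change of hindlimb ischemia over sham for the 9 members tested, from TPM as deposited (black circles) and after size factors (grey squares), with 95% intervals and dotted lines at the all-gene medians. The Nfkbia intervals lie below 0 on both scales, and the other 8 members' intervals span 0.

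Among the subunits, Rela encodes p65, the transactivating partner of the main NF-kB dimer (ENSMUSG00000024927, GRCm38/mm10 chromosome 19, 5637483 to 5648130, plus strand). It had 74.0, 49.0 and 44.5 TPM in hindlimb ischemia replicates 1 to 3, against 76.7, 59.2 and 68.5 TPM in sham replicates 1 to 3. Hindlimb ischemia replicate 1 lay among the sham values, and replicates 2 and 3 lay below the sham range. Its log2 fold change was -0.31 (SE 0.19), with an adjusted p of 0.874 by limma. Without hindlimb ischemia replicate 1 it was -0.53, with an adjusted p of 0.171.

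Nfkb1 encodes p105, which is processed to the p50 partner of p65 (ENSMUSG00000028163, chromosome 3, 135584655 to 135691547, minus strand). It had 43.7, 31.8 and 28.6 TPM in the hindlimb ischemia libraries, against 50.1, 34.9 and 35.04 TPM in the sham libraries. Replicate 1 was the highest library of each group, and the groups overlapped. Its log2 fold change was -0.20 (SE 0.20, adjusted p 0.874), and -0.09 (SE 0.13) after size factors.

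Nfkb2 encodes p100, the precursor of p52 and the centre of the non-canonical pathway (ENSMUSG00000025225, chromosome 19, 46304320 to 46312385, plus strand). It had 11.4, 11.02 and 6.79 TPM in hindlimb ischemia, against 14.2, 11.1 and 11.7 TPM in sham. The third hindlimb ischemia library was low, at 553 reads, and the other 2 had 640 and 732 reads, against 671 to 791 reads in sham. On the log2 scale the fold change was -0.34 (SE 0.21, adjusted p 0.874), and -0.12 without hindlimb ischemia replicate 3. Exons of Nfkb2 share 830 bases with other annotated genes, and the sources used here do not say whether reads were counted by strand.

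Rel encodes c-Rel, a transactivating subunit best known from lymphocytes (ENSMUSG00000020275, chromosome 11, 23736847 to 23770970, minus strand). Its levels were 10.5, 7.73 and 6.17 TPM in hindlimb ischemia, against 12.3, 7.49 and 7.32 TPM in sham, again with replicate 1 highest in both groups. The log2 fold change of -0.13 (SE 0.23, adjusted p 0.909) was 0.09 without sham replicate 1 and 0.03 without hindlimb ischemia replicate 3. Relb encodes the partner of p52 in the non-canonical pathway (ENSMUSG00000002983, chromosome 7, 19606217 to 19629438, minus strand). It had 1.24, 0.790 and 0.779 TPM in hindlimb ischemia, from 62 to 82 reads, against 1.28, 0.799 and 0.929 TPM in sham, from 57 to 84 reads. When no filter was applied its log2 fold change was -0.05 (SE 0.16, adjusted p 0.953 by limma).

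The make-up of the subunit pool was close between groups. Rela contributed 52.6, 48.8 and 51.3% of the summed subunit TPM in hindlimb ischemia, against 49.6, 52.1 and 55.5% in sham. Nfkb1 contributed 31.0 to 32.9% in hindlimb ischemia and 28.4 to 32.4% in sham, and Relb under 1% in every library. These shares are of mRNA and cancel any common scaling of a library.

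Nfkbia encodes I kappa B alpha, the inhibitor that retains p65 dimers in the cytoplasm and is resynthesized after NF-kB activation (ENSMUSG00000021025, chromosome 12, 55489410 to 55492647, minus strand). It had 54.9, 44.1 and 43.9 TPM in the hindlimb ischemia libraries, against 76.3, 63.2 and 66.5 TPM in the sham libraries. Every hindlimb ischemia library lay below every sham library. These values rest on 1472, 1404 and 1713 reads in hindlimb ischemia and 2034, 1831 and 2149 reads in sham. The means were 47.6 ± 6.29 TPM in hindlimb ischemia and 68.7 ± 6.81 TPM in sham (SD, n = 3 each), a ratio of 0.693.

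The log2 fold change of Nfkbia was -0.52 (SE 0.15), or -0.43 relative to the all-gene median. Its unadjusted p of 0.00464 in the limma fit ranked 53 among 13787 genes (0.384% had a p as low, and 1.23% a fold change as far below 0), and its adjusted p of 0.874 did not pass. After size factors the levels were 52.2, 46.0 and 49.9 TPM in hindlimb ischemia, against 65.7, 64.9 and 66.5 TPM in sham, so the spread within sham was smaller on that scale. The log2 fold change was then -0.41 (SE 0.09), with an adjusted p of 0.853 by limma. With 1 library left out in turn, the log2 fold change of Nfkbia ran from -0.63 to -0.45, with adjusted p from 0.101 to 1 by limma. The ends were the fits without hindlimb ischemia replicate 1 and without sham replicate 1. Its sign could not change in these fits, since every hindlimb ischemia library lay below every sham library. Without hindlimb ischemia replicate 1 the members lower at an unadjusted p under 0.05 numbered 3, Nfkbia with Rela and Nfkb2, while lower genes over the whole table numbered 2115, against 407 with all libraries.

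Nfkbia was also the member on the authors' short list of genes. In the authors' deposited table its log2 value was 0.356, which runs as sham over hindlimb ischemia, and its adjusted p was 0.191, the last of the 34 genes on the list. Of the genes with an adjusted p in the authors' deposited table, 0.216% were under 0.2 and 0.0762% under 0.05. The other 9 members had adjusted p of 0.974 to 0.997 in the authors' deposited table.

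Nfkbib encodes I kappa B beta, a slower-turning cytoplasmic inhibitor (ENSMUSG00000030595, chromosome 7, 28758251 to 28767512, minus strand). It had 35.8, 28.1 and 23.0 TPM in hindlimb ischemia, against 31.96, 31.5 and 32.7 TPM in sham. The sham libraries were nearly equal, and hindlimb ischemia lay on both sides of them. Its log2 fold change was -0.17 (SE 0.17, adjusted p 0.874). Its exons share 356 bases with other genes. Nfkbie encodes I kappa B epsilon, another cytoplasmic inhibitor (ENSMUSG00000023947, chromosome 17, 45555703 to 45563169, plus strand). It had 10.8, 6.97 and 8.43 TPM in hindlimb ischemia, against 10.5, 7.06 and 9.85 TPM in sham, with a log2 fold change of -0.06 (SE 0.20, adjusted p 0.947) that was 0.05 after size factors.

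The nuclear members Nfkbiz and Bcl3 bind p50 or p52 dimers on DNA and can raise as well as repress transcription. Nfkbiz, which encodes I kappa B zeta (ENSMUSG00000035356, chromosome 16, 55811375 to 55838899, minus strand), had 2.31, 1.98 and 1.75 TPM in hindlimb ischemia, against 3.36, 2.18 and 2.20 TPM in sham. Sham replicate 1 stood above the rest, and the log2 fold change of -0.24 (SE 0.19, adjusted p 0.874) was -0.09 without it. Divided by size factors, the groups of Nfkbiz and Nfkbia did not overlap, 2 of the 10 genes, both lower in hindlimb ischemia, against 5.5% of all genes tested; the nearest Nfkbiz libraries lay at 2.195 TPM in hindlimb ischemia and 2.198 TPM in sham. Bcl3 (ENSMUSG00000053175, chromosome 7, 19808462 to 19822770, minus strand) had 17.5, 14.6 and 11.7 TPM in hindlimb ischemia, against 14.0, 11.8 and 15.0 TPM in sham. It was the 1 tested member with a positive log2 fold change, 0.08 (SE 0.18, adjusted p 0.925), which was 0.19 after size factors and -0.05 without hindlimb ischemia replicate 1. Bcl3 shares 161 exon bases with an antisense gene.

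Shares of the inhibitor pool restate the separation of Nfkbia on a scale free of library size, and are given as a description. Nfkbia contributed 45.2, 46.1 and 49.4% of the summed TPM of the 5 inhibitors in hindlimb ischemia, against 56.0, 54.6 and 52.6% in sham. Bcl3 contributed 14.5, 15.2 and 13.2% in hindlimb ischemia, against 10.3, 10.2 and 11.9% in sham. Neither share overlapped between the groups, but the total behind the Bcl3 share includes Nfkbia, and the TPM of Bcl3 itself overlapped. The ratio of Nfkbia to Nfkbib was 1.53, 1.57 and 1.91 in hindlimb ischemia, against 2.39, 2.01 and 2.03 in sham, and did not overlap. The ratio of Nfkbia to Rela was 0.741, 0.900 and 0.984 in hindlimb ischemia, against 0.995, 1.07 and 0.971 in sham, and did overlap, as did the ratio of the summed inhibitors to the summed subunits (0.861 to 1.02 in hindlimb ischemia, 0.881 to 1.02 in sham). Of 19 sums, shares and ratios computed, 4 did not overlap, and all 4 contain Nfkbia in the numerator or the denominator. Those given here were chosen for mention after their values were seen and were not tested.

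**Figure D3:**
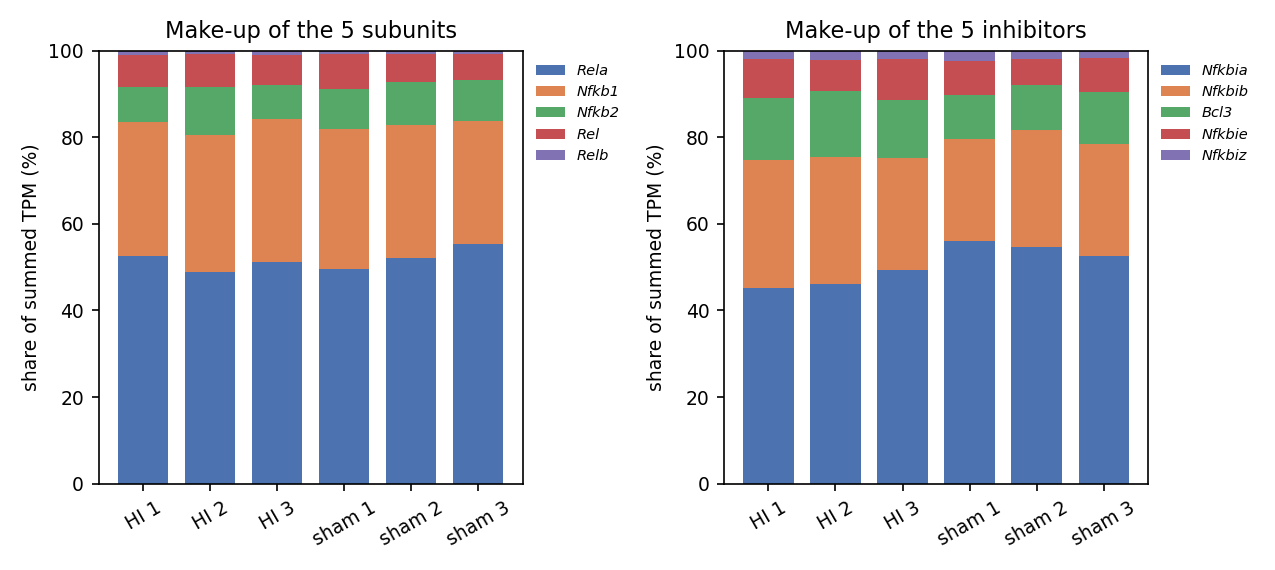
Stacked bars of each gene's percentage of the summed TPM of the 5 subunits (left) and the 5 inhibitors (right) in each library, with hindlimb ischemia left of sham. Nfkbia takes 45.2 to 49.4% of the inhibitor pool in hindlimb ischemia and 52.6 to 56.0% in sham, while Rela takes 48.8 to 55.5% of the subunit pool over all libraries.

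The highest and lowest libraries of the members followed those of the whole table in part. In TPM as deposited, hindlimb ischemia replicate 3 was the lowest library for 9 of the 10 genes, against 47.7% of all genes tested, and replicate 2 for Nfkbie. Hindlimb ischemia replicate 1 was the highest library for 3, against 14.5% of all genes, and sham replicate 1 for 7, against 51.4%. These are also the libraries with the extreme size factors, 0.878 for hindlimb ischemia replicate 3 and 1.16 for sham replicate 1. After size factors, hindlimb ischemia replicate 3 was lowest for 6 members, against 26.4% of all genes. Hindlimb ischemia replicate 1 was then highest for 5, against 19.4%, and sham replicate 1 for 4, against 20.8%. The ratio of the highest to the lowest library was 1.498 for Bcl3, the smallest, and 2.10 for Nfkb2, the greatest. The part of library scale in the members' values beyond this comparison was not tested.

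**Figure D4:**
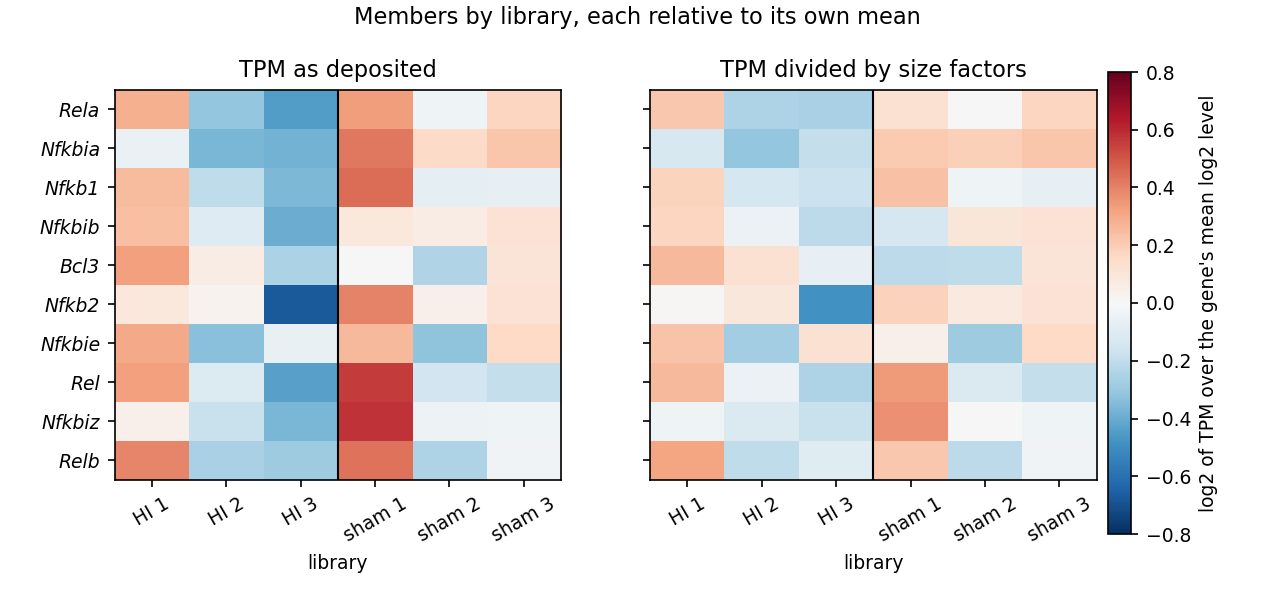
Each gene in each library as log2 of its TPM relative to its own mean log2 level, for TPM as deposited (left) and TPM divided by size factors (right); red is above and blue below the gene's mean, and a line parts hindlimb ischemia (left) from sham (right). Hindlimb ischemia replicate 3 is lowest for 9 of 10 genes on the left and for 6 on the right.

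By the distance between profiles centred on their means (root mean square over 6 libraries on the log2(TPM + 1) scale), the 3 genes closest to Nfkbia were Fut7, Srprb and Slc25a38, at 0.036, 0.037 and 0.040. Fut7, a fucosyltransferase gene of selectin ligand synthesis, had 46.3, 37.3 and 37.7 TPM in hindlimb ischemia, against 63.05, 50.4 and 54.2 TPM in sham. Srprb, which encodes a subunit of the signal recognition particle receptor, had 32.3, 24.1 and 23.8 TPM in hindlimb ischemia, against 43.1, 34.8 and 36.8 TPM in sham. Slc25a38, a mitochondrial glycine carrier gene needed for heme synthesis, had 10.9, 9.37 and 9.41 TPM in hindlimb ischemia, against 16.5, 13.4 and 13.8 TPM in sham.

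Upstream of the members, no gene of the receptor, kinase or ubiquitin lists passed an adjusted p of 0.05 by limma. The lists here and below were chosen with earlier results of these data known, so their counts are descriptions and not tests. Over all genes tested, 69.1% had a fold change below 0, or 46.4% after size factors, and 2.95% were lower and 0.943% higher at an unadjusted p under 0.05. Of 21 receptor and adaptor genes tested, 17 had a fold change below 0, or 16 after size factors, and 2 were lower at an unadjusted p under 0.05, with a list median of -0.21, or -0.11 after size factors. Traf5, an adaptor of tumour necrosis factor receptors, had 2.66 ± 0.298 TPM in hindlimb ischemia and 3.999 ± 0.324 TPM in sham. Ticam1, the TRIF adaptor of toll-like receptors, had 5.83 ± 0.801 TPM in hindlimb ischemia and 8.23 ± 1.39 TPM in sham, and neither gene's groups overlapped. Over the 21 genes, 2 were lower and 1 higher without overlap, against 6.68% and 1.65% of all genes. Tnfrsf1a, the main tumour necrosis factor receptor gene, had 79.5 to 106.1 TPM in hindlimb ischemia and 103.2 to 117.8 TPM in sham, which overlapped.

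Of 16 genes of the I kappa B kinase complex and upstream kinases, 15 had a fold change below 0, or 9 after size factors, against 69.1% and 46.4% of all genes, and 1 was lower at an unadjusted p under 0.05. That gene, Card9, an adaptor below C-type lectin receptors, had 30.9, 28.3 and 23.9 TPM in hindlimb ischemia, against 43.6, 32.2 and 37.5 TPM in sham. Groups did not overlap for 2 of the 16 genes, both lower, against 6.68% of all genes. Tab2 and Prkcb, an adaptor of the TAK1 kinase and a protein kinase C gene, had log2 fold changes of -0.26 and -0.27 with overlapping groups. Of 23 ubiquitin and negative regulator genes, 17 had a fold change below 0, a share close to the 69.1% of all genes, or 13 after size factors, and 1 was higher at an unadjusted p under 0.05, against 0.943% of all genes. That gene, Nkrf, which encodes a repressor of NF-kB target promoters, had 2.5, 3.79 and 2.71 TPM in hindlimb ischemia, against 2.37, 1.88 and 1.49 TPM in sham, and did not overlap. N4bp1 and Birc3, a negative regulator and a ubiquitin ligase of the pathway, had log2 fold changes of -0.31 and -0.30 and did not overlap either. Of the 23 genes, 2 were thus lower and 1 higher without overlap, against 6.68% and 1.65% of all genes. Of 9 other ankyrin-repeat inhibitors and cofactors, all 9 had a fold change below 0, or 5 after size factors, against 69.1% and 46.4% of all genes, and 0 were under an unadjusted p of 0.05 by limma. The lowest p there were those of Nkiras2 (-0.34), which encodes a small GTPase that binds I kappa B, Nfkbid (-0.32), which encodes the nuclear inhibitor I kappa B NS, and the coactivator gene Crebbp (-0.33).

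Downstream, 24 of 29 textbook NF-kB target genes had a fold change below 0, or 19 after size factors, against 69.1% and 46.4% of all genes, with a median of -0.25, or -0.13 after size factors. Of these, 4 were lower at an unadjusted p under 0.05, 0 were higher and 0 passed the adjusted threshold, against 2.95% of all genes lower. Groups did not overlap for 8 of the 29, all lower, against 6.68% of all genes. Cxcl2, a neutrophil chemokine gene, had 0.669, 1.32 and 1.26 TPM in hindlimb ischemia, against 4.49, 2.69 and 2.41 TPM in sham, a log2 fold change of -0.99 (SE 0.22). Ccl4, which encodes the chemokine MIP-1 beta, had 6.68, 6.15 and 6.73 TPM in hindlimb ischemia, against 13.1, 9.07 and 10.3 TPM in sham. Ier3, an early response gene, had 27.9, 25.2 and 24.5 TPM in hindlimb ischemia, against 39.5, 33.1 and 33.7 TPM in sham. Another 12 target genes were under 1 TPM in every library, among them Il1b, Cxcl1, Ccl2 and Ptgs2, which were named for their role in inflammation after their values were seen.

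No gene of the immediate early and stress list passed the adjusted threshold. The list was chosen with earlier results of these data known, so its counts describe it and are not a test. Of 19 tested, 18 had a fold change below 0 on both scales, against 69.1% and 46.4% of all genes, and 10 were lower at an unadjusted p under 0.05, against 2.95%, with a list median of -0.40, or -0.28 after size factors. Their summed level was 1174 to 1377 TPM in hindlimb ischemia and 1720 to 2027 TPM in sham, of which Hspa8 made up 59.7 to 63.6% in hindlimb ischemia and 61.1 to 66.2% in sham. Without Hspa8 the sums were 432.2 to 554.5 TPM in hindlimb ischemia and 580.6 to 788.3 TPM in sham. Hspa8, a constitutive chaperone, had 719.6 to 822.6 TPM in hindlimb ischemia and 1139 to 1239 TPM in sham, and the near-identical inducible genes Hspa1a and Hspa1b, between which reads may be split, had log2 fold changes of -1.41 and -1.27. The part of this response, and of the erythroid markers given above, in the level of Nfkbia was not tested.

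**Figure D5:**
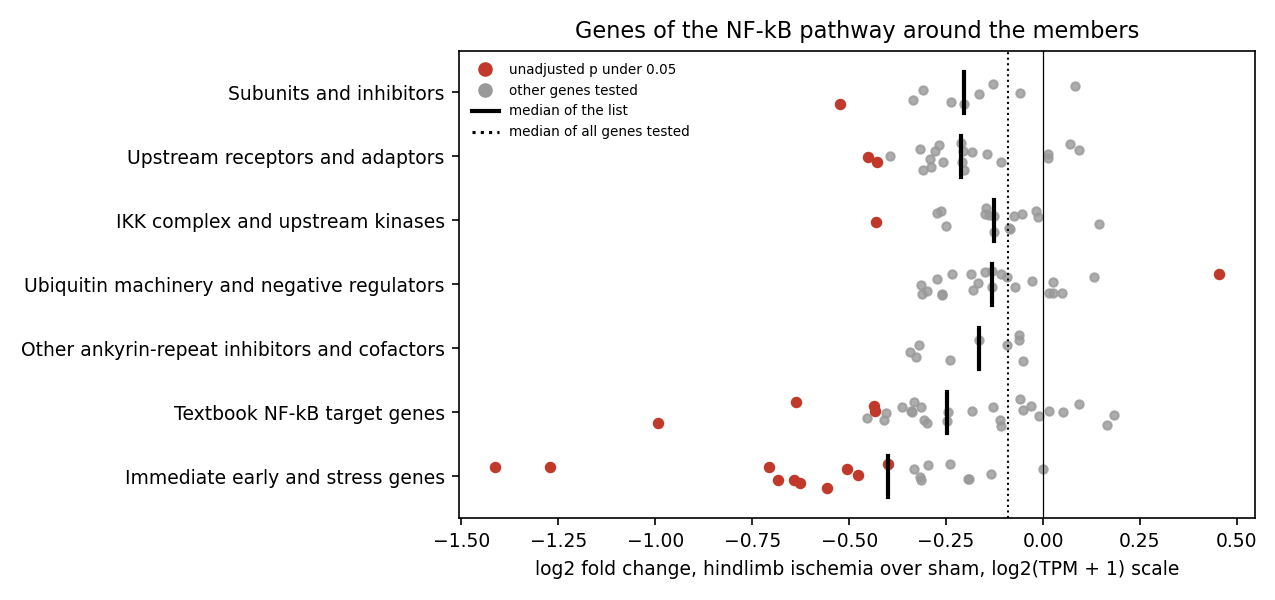
Each point is the log2 fold change of hindlimb ischemia over sham of 1 gene tested, for the members and 6 lists around them; red points have an unadjusted p under 0.05, black bars are list medians and the dotted line is the all-gene median of -0.09. The list medians run from -0.13 for the kinases to -0.40 for immediate early and stress genes.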

How the data were processed

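The authors deposited TPM values per library, per the file headers, and used mm10 according to the submitters' processing notes; aligner, counter and annotation were not given in the sources used here. The authors' log2 fold change and adjusted p-value columns were deposited beside them. The log2 direction, not named in the header, was read as sham over hindlimb ischemia, since its Spearman correlation with the opposite ratio over genes was -0.96. The authors' short list of 34 genes gives gene lengths and positions in its file, and its 6 per-sample columns were not used.

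TPM times GENCODE M21 exon length gave whole reads within 0.001 for 59.5% of 24205 genes. For the others, a length was solved for that turned the 6 values into whole reads. Precision is limited by 3 libraries per group, all of which differed by more than sampling noise (chi-square per gene 14.4 to 122 within groups).

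The 13787 genes that reached 1 TPM in 3 or more libraries were fitted on log2(TPM + 1) with limma 3.58.1 in R 4.3.3 (mean-variance trend, robust), with Benjamini-Hochberg adjustment over all genes and a threshold of 0.05. Fold changes are on the log2(TPM + 1) scale, which understates those of low genes. The fit was tested on simulated data, where unchanged genes made up slightly more of the calls than the threshold allows. Because the unit was TPM, no count test served as main test. The members and lists were chosen with earlier results of these data known. Named genes are the 10 members, the 3 lowest unadjusted p of each of 6 lists, Mpo, Elane, Kit and Cd34, and the 3 profiles closest to Nfkbia among genes with at least 10 TPM. Alternatives were size factors, quantile normalization, pseudocounts of 0.1 and 5, no filter, a filter at a mean of 5 TPM, no trend, an adjusted p of 0.2, a replicate block and each library left out. Limma-voom on recovered reads and size factors with the block were added after seeing the data. Size factors with each library left out were fitted apart from these alternatives.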

Additional observations from a re-analysis of the deposited data

How the results depend on the processing

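Over the 16 alternatives the log2 fold change of Nfkbia ran from -0.63 to -0.41. No filter, the filter at a mean of 5 TPM, no trend and the replicate block left it at -0.52, since they do not alter the difference of group means. Other pseudocounts and leaving out 1 library could not turn its sign, because its groups did not overlap. With size factors and 1 library left out in turn, the log2 fold change of Nfkbia ran from -0.447 to -0.358. There too the sign was fixed, since the groups did not overlap after size factors. The labels do not say whether the replicate numbers pair the samples, and they were not treated as pairs. Correlations of same-numbered deviations were 0.39, 0.18 and 0.08, and those of differently numbered ones ran from -0.43 to 0.38. Hindlimb ischemia replicate 3 correlated most with sham replicate 2 (0.38). With 3 libraries per group these values cannot settle whether a pairing or a shared batch exists. With the replicate number as a block, 69 genes passed an adjusted p of 0.05, against 0 without it, and 1 member passed (Nfkbia, log2 fold change -0.52, adjusted p 0.0278 by limma). At an unadjusted p under 0.05 the block gave 1516 genes lower and 379 higher, and 3 members lower. With size factors and the block, 0 genes passed, 866 were higher at an unadjusted p under 0.05, and Nfkbia had an adjusted p of 0.3 by limma. With each library left out in turn, genes past the threshold ran from 0 to 33, genes lower at an unadjusted p under 0.05 from 172 to 2115, genes higher from 64 to 554, and members lower from 1 to 3, each highest without hindlimb ischemia replicate 1. An adjusted p threshold of 0.2 gave 0 genes. Against 407 lower and 130 higher genes, no filter gave 639 and 276, size factors gave 336 higher, quantile normalization 302 higher and a mean of at least 5 TPM 65 higher. Limma-voom on recovered reads gave 0 genes past the threshold and -0.46 for Nfkbia (adjusted p 0.804).

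Lower kinase genes numbered 9 with size factors, with quantile normalization and with size factors and the block, and 8 to 15 with a library left out. Lower cofactor genes numbered 5 in those 3 scalings. Lower target genes numbered 15 with a mean of at least 5 TPM, where fewer genes were tested. Nfkbie reversed with size factors, with or without the block (0.047), and with quantile normalization (0.0478). With a library left out and no size factors, Nfkbie ran from -0.217 to 0.0766, Rel from -0.307 to 0.0922 and Bcl3 from -0.0496 to 0.223. The cause of these changes was not tested. With 57 to 84 reads, Relb is limited by depth.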
